A study of Mus musculus with 11 samples.

Results

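IAP retroelements, the intracisternal A particle elements, were taken as every feature of the repeat table whose name begins with IAP. There were 6668 such features of 442429 (1.51%), under 25 of 1550 repeat names and built from 25532 annotated copies. By name, 10 were internal parts (names ending in int or in _I, 3763 features) and 15 were LTRs, the long terminal repeats (2905 features). The study profiled J1 mouse embryonic stem cells with mutations of DNA methyltransferases, in 11 samples. RNA enriched on oligo(dT) beads was sequenced at day 0 for 3 genotypes, 1 library each, and the repeat table held values for 2 of these, labelled TKO and TKO_FL. The labels of other samples write the first genotype as DNMT TKO. The sources used here give neither the meaning of FL nor whether each line was 1 clone. Both cultures were kept on mitomycin C-treated mouse embryonic fibroblasts in medium with serum and LIF, so both libraries can hold RNA of feeder cells.

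IAP elements are endogenous retroviruses of the ERVK family. A complete element has an internal part that encodes the Gag and Pol proteins and an LTR at each end, and the LTR holds the promoter and the polyadenylation site. Recombination between the 2 LTRs of an element leaves a solitary LTR. In embryonic stem cells IAP copies are kept silent by DNA methylation, which DNMT1 copies to new strands with the help of UHRF1, and by histone H3 lysine 9 methylation, which TRIM28 and SETDB1 place. IAP is among the most heavily methylated repeats of the mouse genome.

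Sequences of the elements described below are shown because the results differ between LTR types. They come from RefSeq promoter windows of the GRCm38.p6 assembly (250 bases before to 50 after an annotated gene start), the only sequence source used, and the repeat coordinates are of mm10, which is the same assembly. Of 32815 windows, 70 windows of 66 genes overlapped an IAP copy, and 13 of these genes were in the gene table. Each sequence below is the stretch of a window inside an IAP copy, 5′ to 3′ on the strand of the IAP copy, from its first annotated base. Capitals mark AAGATGGC, a YY1-type motif, TGACGTCA, the cyclic AMP response element, and, in the internal part, the primer binding site for the tRNA for phenylalanine that starts reverse transcription.
IAPLTR1_Mm, at chr2:151204968-151205244, plus strand: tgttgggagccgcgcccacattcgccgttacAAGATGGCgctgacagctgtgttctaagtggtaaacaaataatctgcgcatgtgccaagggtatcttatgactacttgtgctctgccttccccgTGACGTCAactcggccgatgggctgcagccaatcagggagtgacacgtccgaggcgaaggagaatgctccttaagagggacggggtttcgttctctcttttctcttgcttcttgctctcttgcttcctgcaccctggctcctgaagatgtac
IAPLTR1a_Mm, at chr14:123631880-123632140, plus strand: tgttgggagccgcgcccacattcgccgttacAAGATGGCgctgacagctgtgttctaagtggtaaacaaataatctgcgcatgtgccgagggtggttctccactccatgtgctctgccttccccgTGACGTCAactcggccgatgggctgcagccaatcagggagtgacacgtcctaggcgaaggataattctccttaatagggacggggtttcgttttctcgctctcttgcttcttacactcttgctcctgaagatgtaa
IAPLTR2_Mm, at chr17:33981269-33981541, plus strand: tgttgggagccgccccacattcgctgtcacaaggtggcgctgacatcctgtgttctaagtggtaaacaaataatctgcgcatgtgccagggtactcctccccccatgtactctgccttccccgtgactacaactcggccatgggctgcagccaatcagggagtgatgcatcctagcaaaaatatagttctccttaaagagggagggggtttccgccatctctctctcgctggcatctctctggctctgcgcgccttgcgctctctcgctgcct
IAPLTR2b, at chr19:16084016-16084302, plus strand: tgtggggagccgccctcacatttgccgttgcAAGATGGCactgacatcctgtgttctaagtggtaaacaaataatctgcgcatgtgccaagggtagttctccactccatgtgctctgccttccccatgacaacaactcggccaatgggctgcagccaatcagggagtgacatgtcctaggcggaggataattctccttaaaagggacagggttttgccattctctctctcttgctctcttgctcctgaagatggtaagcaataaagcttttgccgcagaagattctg
IAPEz-int, a copy annotated over 76 bases at chrX:67048023-67048098, plus strand: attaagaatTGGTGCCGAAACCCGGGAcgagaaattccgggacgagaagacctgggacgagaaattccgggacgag

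The 4 LTRs began alike. Over their first 250 bases, IAPLTR1_Mm and IAPLTR1a_Mm were 91.3% identical, and IAPLTR1_Mm and IAPLTR2_Mm were 81.0% identical. AAGATGGC began at base 32 of the IAPLTR1_Mm, IAPLTR1a_Mm and IAPLTR2b copies. TGACGTCA began at base 126 of the IAPLTR1_Mm and IAPLTR1a_Mm copies and was not found in the IAPLTR2_Mm and IAPLTR2b copies. Over windows that hold at least 200 bases of a copy, searched on both strands, TGACGTCA was in 3 of 6 for IAPLTR1_Mm and in 2 of 2 for IAPLTR1a_Mm. It was in 0 of 5 for IAPLTR2_Mm, 0 of 2 for IAPLTR2a, 0 of 5 for IAPLTR2a2_Mm and 0 of 4 for IAPLTR2b. AAGATGGC was in 3 of 6 windows for IAPLTR1_Mm, 2 of 2 for IAPLTR1a_Mm and 2 of 5 for IAPLTR2_Mm. For IAPLTR2a it was in 0 of 2, for IAPLTR2a2_Mm in 2 of 5 and for IAPLTR2b in 4 of 4. For IAPEY_LTR it was in 3 of 4. Of all 32815 promoter windows, 1.79% held TGACGTCA and 2.74% held AAGATGGC. The motifs do not overlap each other, and their letters were chosen after the sequences had been seen. The letters of the primer binding site, TGGTGCCGAAACCCGGGA, were read off the IAPEz-int copy shown, from base 10 on, so their presence there is no result. They were in 0 of 15 IAPEz-int windows with at least 200 bases of a copy and in 0.0122% of all windows. CpG, the dinucleotide that DNMT1 methylates, varied in density between LTR names. The median was 5.16 CpG per 100 bases in IAPLTR1_Mm, 5.73 in IAPLTR1a_Mm, 5.68 in IAPLTR2a and 4.40 in IAPLTR2_Mm. It was 5.69 in IAPEY_LTR and 4.80 in IAPEY2_LTR. It was 3.40 in IAPLTR2b, 3.33 in IAPLTR2a2_Mm and 1.85 in IAP1-MM_LTR, against 2.33 in all promoter windows. Each median of an LTR name rests on few windows, 2 for IAPLTR1a_Mm and for IAPLTR2a. Windows are not always separate copies, here or in the motif counts. For IAPLTR2b, overlapping windows of Gm32026 lie on the same copy, with 2.09 and 2.67 CpG per 100 bases. The other IAPLTR2b windows had 4.14 and 5.33. Overlapping windows of Gm42298 likewise share a copy of IAPEY_LTR. Ranges overlapped, with 3.42 to 5.47 over 6 windows of IAPLTR1_Mm and 3.26 to 7.33 over 5 of IAPLTR2_Mm.

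IAP RNA was lower in the TKO_FL library than in the TKO library. Summed over all IAP features, the level was 2447 TPM in TKO and 578 TPM in TKO_FL, 4.24-fold apart, with TPM scaled here to the repeat table alone. In fragments, the sequenced cDNA pieces, IAP took 53505 of 1327700 repeat fragments in TKO and 9126 of 1179815 in TKO_FL. These are 4.03% and 0.774% of the repeat fragments. The log2 ratio of the shares, TKO_FL over TKO, was -2.38, with an exact 95% binomial interval of -2.41 to -2.35. With 1 library per genotype there was no replicate check and no test. The intervals cover counting error only, and fractional counts were rounded to whole fragments for them. They can be too narrow, since PCR duplicates cannot be told from separate molecules and features may share fragments. In bulk RNA, fewer cells that express an element and less RNA per cell cannot be told apart.

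The retroelement groups set beside IAP differed less, as groups. ETn and MusD, ERVK elements that also depend on TRIM28 for silencing, were at 2990 TPM in TKO and 3450 TPM in TKO_FL (log2 fold 0.21). MERVL with its LTR MT2_Mm, an element of cells that resemble the 2-cell embryo, had 316 and 299 TPM (log2 fold -0.08). L1Md, the young LINE-1 names, had 1904 and 1830 TPM (log2 fold -0.06). ERVK names without IAP summed to 15011 and 15380 TPM. Log2 folds here are log2 of the ratio of TPM values plus 1. A name was called lower or higher where this reached 2-fold, among names with at least 5 TPM in 1 library. Of 165 such ERVK names outside IAP, 8 were lower and 9 higher, and their median log2 fold was -0.07.

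**Figure D1:**
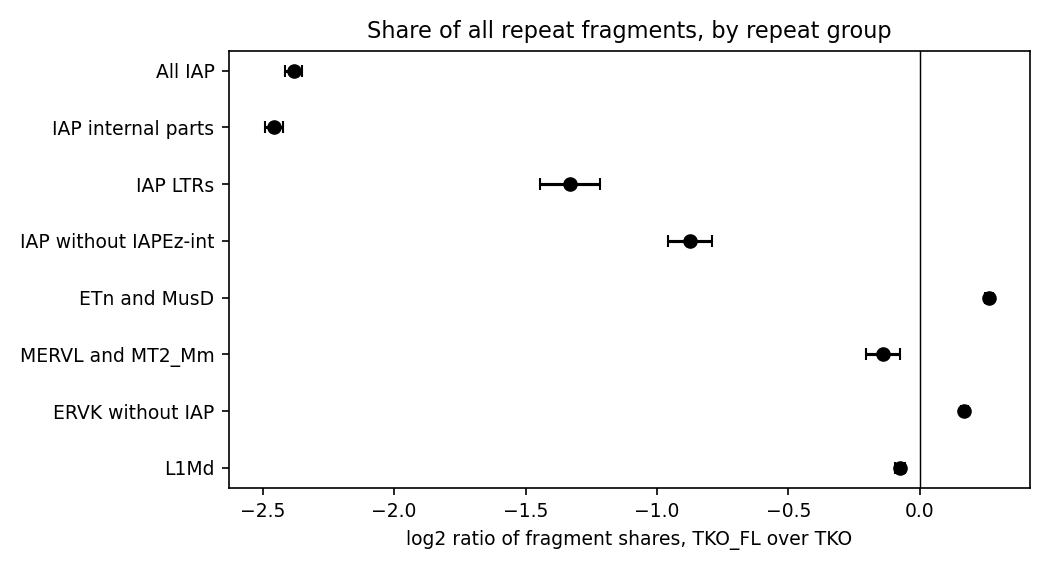
Log2 ratio of the share of all repeat fragments, TKO_FL over TKO (x axis), for IAP sets and other retroelement groups (y axis). Points are the ratio of 1 library to 1 library and bars are exact 95% binomial intervals of counting error. All IAP lies at -2.38 and IAP without IAPEz-int at -0.87, and the ETn and MusD group lies above 0.

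Internal parts carried most of the difference. They had 2035 TPM in TKO and 399 in TKO_FL, a log2 fold of -2.35, and the log2 ratio of fragment shares was -2.46 (interval -2.49 to -2.42). LTR names had 411 and 178 TPM, a log2 fold of -1.20, with a ratio of shares of -1.33 (interval -1.45 to -1.22). LTRs therefore made up 4.48% of IAP fragments in TKO (exact interval 4.31 to 4.66) and 9.28% in TKO_FL (8.69 to 9.90). For each internal fragment there were 0.0469 LTR fragments in TKO and 0.102 in TKO_FL, a log2 change of 1.13. This rise rested on a single name, IAPEz-int. Without IAPEz-int the direction turned, and the log2 change of LTR per internal fragments was -1.07.

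Of the 25 IAP names, 15 reached 5 TPM in 1 library, 7 internal and 8 LTR. Of these 15, 5 were at least 2-fold lower in TKO_FL, 0 were higher and 10 were within 2-fold. Over all 969 repeat names that passed the same minimum, 6.71% were lower and 6.6% were higher. The 5 lower names were the internal parts IAPEz-int and IAPA_MM-int and the LTRs IAPLTR1_Mm, IAPLTR1a_Mm and IAPLTR2b. The median log2 fold was -0.55 over the 15 IAP names and -0.01 over all 969 names. The lowest IAP name above the minimum had 9.26 TPM and the highest one below it 4.57 TPM.

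**Figure D2:**
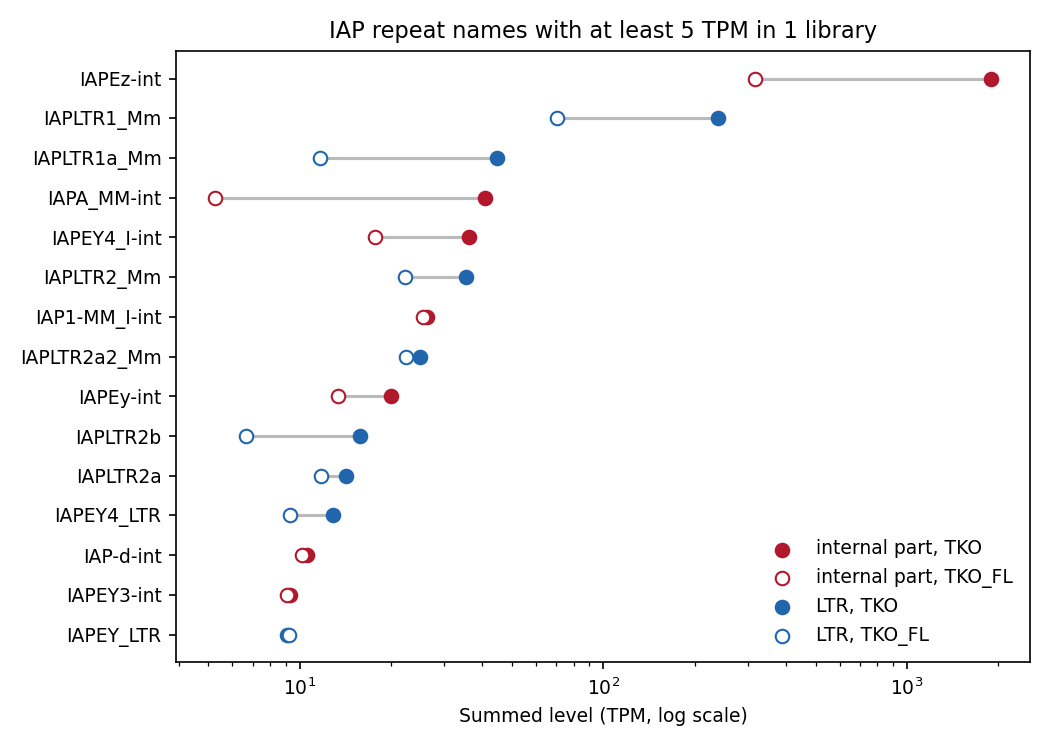
Summed level of each IAP repeat name that reached 5 TPM in 1 library (x axis, TPM, log scale). Filled points are the TKO library and open points the TKO_FL library, red for internal parts and blue for LTRs. IAPEz-int goes from 1891 to 317 TPM, and the points of IAP1-MM_I-int, IAP-d-int, IAPEY3-int and IAPEY_LTR nearly coincide.

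IAPEz-int is the internal part of the most numerous intact IAP elements. It had 1891 TPM in TKO and 317 in TKO_FL, a log2 fold of -2.57. It held 49880 fragments in TKO and 7370 in TKO_FL, 3.76% and 0.625% of all repeat fragments, and the log2 ratio of shares was -2.59 (interval -2.62 to -2.55). It made up 93.2% of all IAP fragments in TKO and 80.8% in TKO_FL. Among 1550 repeat names ordered by TPM it was the 83rd in TKO and the 192nd in TKO_FL. Of the 969 names with at least 5 TPM in 1 library, IAPEz-int had the 19th lowest log2 fold, IAPA_MM-int the 16th and IAPLTR1_Mm the 31st. Of the 359 names with at least 100 TPM in 1 library, IAPEz-int had the lowest log2 fold and IAPLTR1_Mm the third lowest. Between these 2 was the simple repeat (CCCGAA)n (-2.27).

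IAPLTR1_Mm and IAPLTR1a_Mm followed IAPEz-int. IAPLTR1_Mm had 238 TPM in TKO and 70.2 in TKO_FL, a log2 fold of -1.75, and a ratio of shares of -1.83 (interval -2.01 to -1.66). IAPLTR1a_Mm had 44.7 and 11.7 TPM, a log2 fold of -1.85. Together they held 1675 fragments in TKO and 411 in TKO_FL, 69.9% and 48.5% of all IAP LTR fragments. Per kilobase of annotated copies, IAPEz-int had 4.62 fragments in TKO and IAPLTR1_Mm 2.80. In TKO_FL these levels were 0.683 and 0.699 fragments per kilobase, so this internal part and this LTR stood apart in TKO and close together in TKO_FL. IAPLTR1a_Mm was far below both, with 0.498 fragments per kilobase in TKO and 0.111 in TKO_FL. IAPA_MM-int, a short internal name with a median copy of 255 bases, had 40.7 and 5.27 TPM, a log2 fold of -2.74 on 112 and 16.0 fragments. Of its 126 copies, 101 lay beside an IAP LTR and 52 beside IAPLTR1_Mm.

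The IAPLTR2 names differed less. IAPLTR2_Mm had 35.3 and 22.3 TPM (log2 fold -0.64), and it was at -0.95 by fragment share and at -1.01 scaled to gene fragments. IAPLTR2a2_Mm had 24.9 and 22.3 TPM (-0.15), and IAPLTR2a had 14.2 and 11.8 TPM (-0.26). IAPLTR2b had 15.9 and 6.67 TPM, a log2 fold of -1.14 on 70.0 and 32.7 fragments, and it was within 2-fold by fragment share (-0.93). Summed over these 4 names, the log2 ratio of shares was -0.58 (interval -0.79 to -0.39). This interval does not overlap that of IAPLTR1_Mm and IAPLTR1a_Mm together, which was -2.02 to -1.70 around -1.86. Per 100 IAPEz-int fragments there were 3.36 fragments of IAPLTR1_Mm and IAPLTR1a_Mm in TKO and 5.57 in TKO_FL. For the IAPLTR2 names the same count was 1.11 in TKO and 4.47 in TKO_FL.

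The LTR names also differed in where their copies lie. On the annotation, 1206 of 1359 IAPLTR1_Mm copies (88.7%) and 1424 of 1594 IAPLTR1a_Mm copies (89.3%) lay within 50 bases of an IAPEz-int copy on the same strand. For IAPLTR2_Mm it was 56.2%, for IAPLTR2a2_Mm 53.8%, for IAPLTR2a 42.2% and for IAPLTR2b 39.3%. The remaining copies of these names are solitary LTRs or lie beside other sequence. Of 1298 IAPEY_LTR copies and 31 IAPEY4_LTR copies, 0 lay beside IAPEz-int. The pair with the highest percentages had the lowest ratios of shares, but the other names followed no such order: IAPLTR2b had the lowest percentage of the IAPLTR2 names and a lower ratio (-0.93) than IAPLTR2a2_Mm (-0.40), and IAPEY_LTR was at -0.80. The reads do not say which copies of a name were transcribed, so the part of position in the differences was not tested. Seen from the internal side, 4086 of 6812 IAPEz-int copies had an LTR beside them, 681 of them at both ends. The LTR was IAPLTR1a_Mm for 1094 copies, IAPLTR1_Mm for 937, IAPLTR2a2_Mm for 764 and IAPLTR2_Mm for 701.

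**Figure D3:**
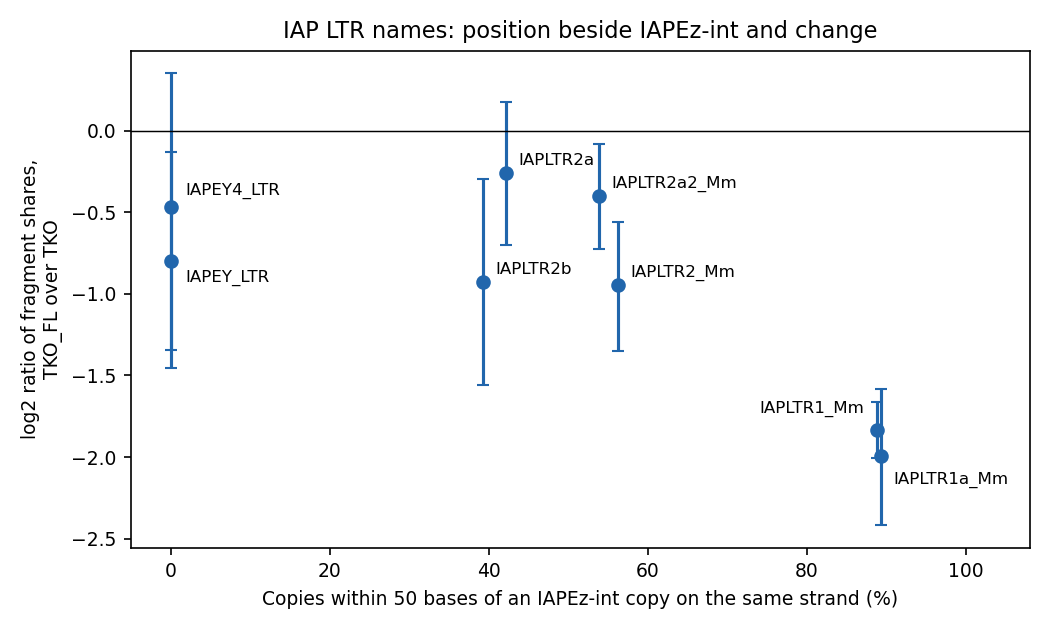
IAP LTR names with at least 5 TPM in 1 library. The x axis is the percentage of copies within 50 bases of an IAPEz-int copy on the same strand, and the y axis is the log2 ratio of fragment shares, TKO_FL over TKO, with exact 95% binomial intervals of counting error. IAPLTR1_Mm and IAPLTR1a_Mm lie lowest and farthest right, and the other names show no order by position.

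The IAPEY names and the remaining internal parts stayed closer between the libraries. IAPEY4_I-int had 36.0 TPM in TKO and 17.8 in TKO_FL, a log2 fold of -0.98, just within 2-fold. IAPEy-int, with 43.5% of its copies on chromosome Y, had 20.0 and 13.4 TPM (-0.55). IAPEY4_LTR had 12.9 and 9.32 TPM (-0.43). Levels that hardly differed were those of IAP1-MM_I-int (26.4 and 25.6 TPM, -0.04), IAP-d-int (10.6 and 10.2 TPM, -0.05), IAPEY3-int (9.29 and 9.11 TPM, -0.03) and IAPEY_LTR (9.07 and 9.26 TPM, 0.03). By fragment share IAPEY_LTR was at -0.80 (interval -1.46 to -0.13), on 60.5 and 30.9 fragments, so its change depends on the scale. IAP1-MM_I-int was the best counted of this set, with 388 and 380 fragments and a ratio of shares of 0.14 (interval -0.07 to 0.35). This sum joins features that differed: 3 had at least 20 fragments in 1 library, with ratios from -0.97 to 0.73. Of their intervals, 1 lay below 0 and 1 above 0.

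Below 5 TPM in both libraries were 10 names. They were IAPEY2_LTR, IAPLTR4, IAPLTR4_I, IAP1-MM_LTR, IAPEY3_LTR, IAPEY3C_LTR, IAPEY5_LTR, IAPLTR3, IAPLTR3-int and IAPEY5_I-int. IAPEY2_LTR was the highest, with 25 fragments in TKO and 13 in TKO_FL, and IAPEY5_I-int had 0 in both, where 3 fragments are the upper limit that a count of 0 allows. In the annotation, 91.6% of IAPLTR3 copies and 81.4% of IAPLTR3-int copies lay on chromosome Y, against 43.7% for IAPLTR4 and 36.8% for IAPEY3C_LTR. IAPLTR3 and IAPLTR3-int had signal in 2 of 773 and 4 of 1271 features. Among names above the minimum, IAPEY_LTR had 63.8% of its copies on chromosome Y and IAPEY3-int 51.4%.

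A feature of the table joins same-numbered copies of a name across chromosomes, so a feature can stand for several copies. It did for 2096 of the 6668 IAP features, and for 1175 of the 1215 with signal. Of all 6668, 5453 had no signal in either library and 123 reached 5 TPM in 1 library. Of these 123, 109 were at least 2-fold lower in TKO_FL, 1 was higher and 13 were within 2-fold. The 109 passed the minimum through TKO, the library where they were high, so their number depends on the filter. Over all 17240 repeat features that passed the same minimum, 14.5% were lower and 14.9% were higher. The median log2 fold was -1.96 over the IAP features and 0.03 over all features. The feature that was higher was IAPLTR1_Mm_dup97, with 3.68 TPM in TKO and 8.47 in TKO_FL. It rests on 3.28 and 7.03 fragments, and its interval (-0.74 to 3.98) includes 0.

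IAPEz-int features were lower almost throughout. Of its 552 features, 433 had at least 20 fragments in 1 library, and the log2 ratio of shares was below 0 in 431 and had an interval below 0 in 428. The median was -2.98 and the middle 50% ran from -3.60 to -2.33. The ratio was above -1 in 13 features. Those above 0 were IAPEz-int_dup157, with 3.92 TPM in TKO and 4.25 in TKO_FL (ratio 0.18, interval -0.21 to 0.58), and IAPEz-int_dup428, with 4.14 and 4.15 TPM (0.07, interval -0.56 to 0.70). With 0.5 fragment added to each count, 97.0% of IAPEz-int features, 51.3% of the 39 other IAP features and 4.36% of the 9776 features of other repeats were at least 2-fold lower. The 431 IAPEz-int features below 0 passed the minimum of 20 fragments through TKO, where they were high. Features of this name may share fragments and are not replicates.

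**Figure D4:**
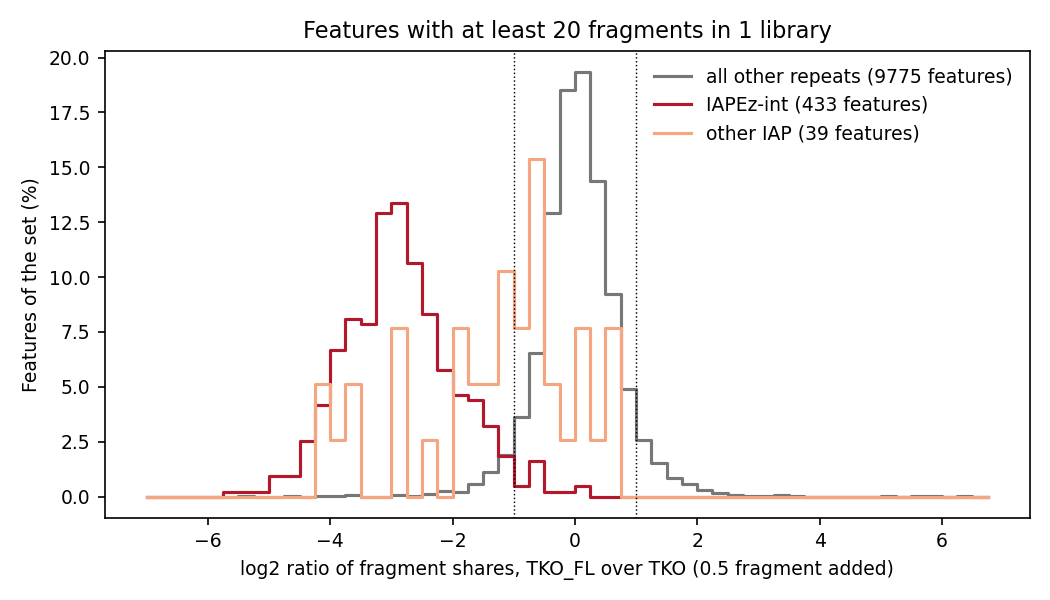
Distribution of the log2 ratio of fragment shares, TKO_FL over TKO (x axis, bins of 0.25), in features with at least 20 fragments in 1 library, as a percentage of the features of each set (y axis). Dotted lines mark 2-fold and 1 feature of other repeats lies beyond the axis. The 433 IAPEz-int features peak near -3, and the features of other repeats peak near 0.

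Among the 10 features with the highest mean levels, the change varied. IAPEz-int_dup417, which joins 4 copies on chromosomes 1, 2, 5 and X, had 16.7 TPM in TKO and 13.1 in TKO_FL, and its ratio of shares was -0.29 (interval -0.69 to 0.11). IAPEz-int_dup458, which joins 3 copies, had 17.6 and 4.94 TPM. IAPEz-int_dup416, which abuts dup417 on chromosomes 2 and X, had 14.1 and 2.33 TPM. Both features also hold copies elsewhere, and their values cannot be assigned to single copies. Others among the 10 highest were IAPEz-int_dup480 (12.5 and 2.82 TPM) and IAPEz-int_dup396 (11.4 and 2.81 TPM). The non-IAPEz members of that group stayed within 2-fold. These were IAPLTR2_Mm_dup98, a single copy at chr2:150197893-150198308 with 11.4 and 10.2 TPM on 6 and 5 fragments, IAPLTR2a2_Mm_dup36 with 11.4 and 7.60 TPM, and IAPEY4_LTR_dup5 with 10.9 and 7.04 TPM. IAP1-MM_I-int_dup14 and IAP1-MM_I-int_dup15 completed it, with 10.4 and 10.0 TPM and with 7.24 and 11.5 TPM.

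The 5 lowest log2 folds, on TPM with a pseudocount of 1, among features with at least 20 fragments were all of IAPEz-int. By ratio of shares, features of other names were also among the low ones. The lowest ratio was -6.24 in IAPEz-int, -4.83 in IAPLTR1_Mm and -4.81 in IAPA_MM-int. IAPEz-int_dup509 had 9.44 TPM in TKO and 0.119 in TKO_FL, on 85.1 and 1 fragments. IAPEz-int_dup413 had 10.8 and 0.283 TPM, IAPEz-int_dup515 had 10.8 and 0.449 TPM and IAPEz-int_dup419 had 11.2 and 0.671 TPM. The fifth, IAPEz-int_dup565, is a single copy of 6389 bases at chrX:162979001-162985389 on the minus strand. It had 8.80 and 0.345 TPM, on 71.2 and 2.6 fragments, and a ratio of shares of -4.60 (interval -6.71 to -2.79). The highest folds were IAP1-MM_I-int_dup15 (log2 fold 0.60), IAPLTR2a2_Mm_dup48 (0.47), IAP-d-int_dup34 (0.36), IAPLTR2a_dup16 (0.25) and IAPEz-int_dup157 (0.09), and none of them reached 2-fold.

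The 27 IAPEz-int features that hold 1 copy stand for a single annotated copy each. Of them, 12 had signal in TKO and 8 in TKO_FL. Those with most fragments had fractional counts, so they may share fragments with other copies. The 27 features summed to 28.6 TPM in TKO and 1.88 in TKO_FL, a log2 fold of -3.36 on 168 and 8.30 fragments. Most of these fragments in TKO lay in IAPEz-int_dup565 (71.2), IAPEz-int_dup553 and IAPEz-int_dup559, all on chromosome X. Features that join 2 to 4 copies had a log2 fold of -2.42, those with 5 to 10 copies -2.59, with 11 to 18 copies -2.73 and with 19 to 21 copies -2.50. All 5 classes were thus lower, with no steady order between them. Other long single copies had few fragments left in TKO_FL. IAPEz-int_dup553 (chrX:158677333-158683727, plus strand) had 28.1 fragments in TKO and 2.5 in TKO_FL, and IAPEz-int_dup559 (chrX:160285960-160292422, plus strand) had 28.4 and 1.4.

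Copy length went with the size of the difference. Of the 6812 IAPEz-int copies, 745 were 5000 bases or longer, up to 6647 bases. Features with no such copy had 4.92 fragments per kilobase in TKO and 0.961 in TKO_FL (ratio of shares -2.19, interval -2.27 to -2.10). Features in which fewer than 25% of copies were long had a ratio of -2.63 (interval -2.68 to -2.59). Features with 25% or more of long copies had 4.84 fragments per kilobase in TKO and 0.577 in TKO_FL (ratio -2.90, interval -3.00 to -2.79). The levels per kilobase were thus close in TKO and ordered by length in TKO_FL. The order of single features was partly kept: over 433 features, levels per kilobase in both libraries had a Spearman correlation of 0.614 and a Pearson correlation of 0.639 on the log scale. These points share lengths and libraries and may share fragments. The 10 highest features held 6.67% of IAPEz-int fragments in TKO and 13.6% in TKO_FL, and 21 of the 50 highest were in the top 50 of both libraries.

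Most IAP fragments lay in features with a fractional number of fragments. Fractions can arise where a fragment is divided among copies or among overlapping features, and the sources used here do not say which. Such features held 97.6% of IAP fragments in TKO and 91.7% in TKO_FL. In the other repeats they held 38.8% and 37.1%. The share of fragments that were themselves divided is not known from these values. Features with whole numbers in both libraries held only 484 IAP fragments in TKO and 450 in TKO_FL, and of IAPEz-int 0 in TKO and 4 in TKO_FL. Over these features alone the IAP log2 fold, on TPM, was -0.25, with next to nothing left of the name that carries the difference. A feature with many fragments nearly always holds a fraction, so this subset is also one of low signal.

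Among genes of IAP silencing, Dnmt1 stood apart. It was at 54.9 TPM in TKO and 1177 TPM in TKO_FL (log2 fold 4.40), here scaled to the gene table. Dnmt3b, whose product sets new methylation, was at 36.9 and 17.6 TPM (log2 fold -1.03). The lines carry mutations of DNA methyltransferases, and RNA levels do not show whether a working enzyme was made. Whether Dnmt RNA came from mutant alleles or from feeder cells was not tested. Of 38 listed silencing genes, 37 were in the table and tested, 1 was lower, 1 higher and 35 within 2-fold, with a median of -0.08. Over all 13642 genes with at least 1 TPM in 1 library, 3.06% were lower and 3.58% higher. The most abundant of the others were Trim28 (1568 and 1178 TPM), the histone H3.3 genes H3f3a (878 and 914 TPM) and H3f3b (805 and 878 TPM), and Dnmt3l, a cofactor of de novo methylation (533 and 330 TPM). Hells, a remodeller needed for methylation of repeats, had 367 and 287 TPM and Uhrf1 345 and 299 TPM. Setdb1 was within 2-fold as well, at 77.5 and 64.1 TPM.

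Marker genes of other cells moved between the same libraries. All 15 primitive endoderm markers were at least 2-fold lower in TKO_FL, and their summed level was 1618 TPM in TKO and 490 in TKO_FL. Of 19 tested feeder fibroblast markers, 5 were lower and 0 higher, with sums of 1223 and 905 TPM. Within 2-fold, Fn1 (log2 fold 0.47) and Mmp2 (0.66) went up, and the other tested feeder markers went down. None of the 8 pluripotency markers was 2-fold apart, and their sums were 9189 and 11590 TPM. Over all 13642 tested genes, 3.06% were lower and 3.58% higher. The marker lists were chosen with earlier results of these data known. No member of the 3 lists was at 0 in either library. The part of these cells in the IAP difference was not tested.

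Genes that overlap or neighbour IAP copies were mostly within 2-fold. An exon of 55 genes overlapped an IAP copy. Of the 17 with at least 1 TPM in 1 library, 1 was lower and 0 higher, and the median log2 fold was -0.13. The lower one was 4930590L20Rik, on 5 and 1 fragments. Prnp, the prion protein gene, whose exons overlap IAPEz-int and IAPLTR1_Mm, had 17.8 TPM in TKO and 12.6 in TKO_FL. Bckdhb, a branched-chain keto acid dehydrogenase gene with a RefSeq start window wholly inside an IAPEz-int copy on chromosome 9, had 57.2 and 63.3 TPM. The Bckdhb start used from the gene table was not within 5000 bases of an IAP copy. Its level is that of the whole gene and does not measure RNA from the start inside IAPEz-int. Both genes were picked after their values had been seen. Of 144 tested genes with a start within 5000 bases of an IAP copy, 7 were lower (4.86%) and 5 higher, and the median was 0.03. Of the 52 near IAPEz-int, IAPLTR1_Mm or IAPLTR1a_Mm, 2 were lower and 2 higher. These shares are near the 3.06% and 3.58% of all genes.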

How the data were processed

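RNA-seq values of the libraries labelled TKO and TKO_FL were used, with groups from the titles. Per the submitters' processing notes, the tools include HISAT2, featureCounts, Subread, SAMtools and Trim Galore and the build is mm10. The authors deposited a gene and a repeat table of signal values, named TPM. The gene columns add up to 10000000 and TPM to 1000000, so all values were divided by 10. The deposited repeat signal summed to 9802099 in TKO and 9804588 in TKO_FL. Value times length gave fragments: 10860312 and 10084490 in genes, whole for 100% (tolerance 1e-06), and 1327700 and 1179815 in repeats, where 15.0% and 15.2% of features with signal held fractions. The sources used here do not give the command that counted repeats. In both deposited signal files, 11 other columns each, whose names fit no sample, were not used, and TKO_602 has no repeat values used here.

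Values were summed by repeat name. Log2 folds used a pseudocount of 1, a threshold of 2-fold and a minimum of 5 TPM (genes 1 TPM) in 1 library. Shares of fragments carry exact 95% binomial intervals, computed from counts rounded to whole fragments. No test was run, since each genotype had 1 library. An LTR copy counted as beside an internal part within 50 bases on the same strand. LTR sequences were aligned over 250 bases with Biopython 1.88. Python 3.11.15, numpy 2.4.6, pandas 2.3.3 and scipy 1.17.1 were used. The fold step was tested on simulated data. The members, gene lists and tests were chosen with earlier results of these data known. Named features are the 10 with the highest mean TPM and the 5 highest and 5 lowest folds among those with at least 20 fragments and 200 bases, and named silencing genes those 2-fold apart and the 6 with the highest levels. Setdb1, the single copies on chromosome X and the genes beside IAP copies were named in addition, after their values had been seen. Alternatives were other scales, pseudocounts of 0.1 and 5, other minimums, features with whole fragments alone, and sets without IAPEz-int.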

Additional observations from a re-analysis of the deposited data

How the results depend on the processing

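The drop of summed IAP kept its direction in every alternative that was run. Its log2 fold of -2.08 was -2.44 scaled to gene fragments and -2.38 as a share of repeat fragments. Over features with whole fragments alone it was -0.25, and this was run on TPM only. By construction these features hold 0 IAPEz-int fragments in TKO and 4 in TKO_FL. They hold 484 of 1327700 repeat fragments in TKO and 450 of 1179815 in TKO_FL. As a share of fragments they were therefore not lower in TKO_FL. The log2 change of LTR per internal fragments, 1.13, turned to -0.61 over those features and to -1.07 without IAPEz-int, an alternative added after the data had been seen. On those features 2 IAP names were lower and 1 higher (IAPLTR2a2_Mm, log2 fold 1.37), and 1 IAP feature was lower and 0 higher. The count of 109 lower features was 38 with a pseudocount of 5 and 514 with no minimum. The count of 1 higher feature was 0 with a pseudocount of 5, 11 with no minimum and 0 scaled to gene fragments. A minimum of 20 TPM could give no value for features, since none reached it. IAPLTR2b was within 2-fold with a pseudocount of 5 (-0.84), scaled to gene fragments (-0.99) and by share (-0.93). IAPEY4_I-int reached -1.02 with a pseudocount of 0.1, and IAPLTR2_Mm -1.01 scaled to gene fragments. The count of 1 lower silencing gene, Dnmt3b, was 0 with a pseudocount of 5, an alternative added later. No paired analysis was possible because there was 1 library per genotype, and for the same reason no replicate could be left out.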
